A study of Mus musculus with 20 samples.

Results

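Amacrine transmitter and identity genes were followed in bulk RNA-Seq of whole mouse retina. The genes were *Gad1*, *Gad2*, *Slc32a1*, *Slc6a9*, *Chat*, *Th*, *Tfap2a*, *Tfap2b* and *Pax6*, chosen by name for the GABA, glycine, acetylcholine and dopamine systems of amacrine cells and for their transcription factors. All 9 were found by their symbols, as 9 of 19368 genes listed for the oxygen-induced retinopathy (OIR) retinas and 9 of 19102 genes listed for the injected retinas. There were 20 libraries, 5 in each of 4 groups. The OIR groups were *Atf6*+/+ and *Atf6*-/- mice on a C57BL/6J background, kept in 75% oxygen from P7 to P12 and collected at P17. The *Atf6*-/- allele carries a premature stop codon in exon IV. The injected groups were wild-type mice that received 1 µL into the vitreous of both eyes at P30, either saline with dimethyl sulfoxide, labelled PBS, or 10 µM Ceapin-A7 in saline with dimethyl sulfoxide, and retinas were taken 24 h later. The stated share of dimethyl sulfoxide is not the same for both groups, so the vehicles may be unequal. Ceapin-A7 is a small molecule that holds ATF6, a transcription factor anchored in the endoplasmic reticulum, in that compartment. The libraries were made from whole retinas of mice of both sexes. No source ties the libraries of a group to separate animals, so p-values measure the spread between these libraries, part of which may be technical.

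Amacrine cells are inhibitory interneurons of the inner retina that shape the signals passing from bipolar cells to ganglion cells. Nearly all of them release GABA or glycine, starburst amacrine cells also release acetylcholine, and a sparse type releases dopamine. *Pax6* and the AP-2 factors *Tfap2a* and *Tfap2b* act in the specification of retinal neurons and continue to be expressed in amacrine cells. *Tfap2a*, *Tfap2b* and *Slc32a1* are expressed in horizontal cells too, and *Pax6* also in ganglion and horizontal cells. In whole retina, fewer cells of a type and less RNA per cell cannot be told apart.

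The windows of 250 bases before the annotated transcript starts are printed below for the genes whose promoter held a cyclic AMP response element or the core of an ATF6 site (*Pax6* and *Th*) and for *Gad1*, *Slc32a1* and *Tfap2b*, which are described further on for their levels or for how they varied together. The sequences are RefSeq's for GRCm38.p6, 5′ to 3′ on the gene's strand, and capitals mark the motifs found.

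Pax6 start site 1 (chr2:105668646-105668895, plus strand): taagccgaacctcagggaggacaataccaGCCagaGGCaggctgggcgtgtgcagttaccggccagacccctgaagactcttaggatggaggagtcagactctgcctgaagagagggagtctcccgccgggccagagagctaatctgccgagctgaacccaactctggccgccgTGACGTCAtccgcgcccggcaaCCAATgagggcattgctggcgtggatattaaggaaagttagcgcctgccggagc
Pax6 start site 2 (chr2:105682213-105682462, plus strand): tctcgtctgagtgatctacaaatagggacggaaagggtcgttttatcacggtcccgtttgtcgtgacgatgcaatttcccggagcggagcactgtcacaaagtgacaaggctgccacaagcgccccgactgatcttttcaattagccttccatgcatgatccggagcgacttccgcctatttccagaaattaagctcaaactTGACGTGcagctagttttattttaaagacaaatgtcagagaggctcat
Th (chr7:142899996-142900245, minus strand): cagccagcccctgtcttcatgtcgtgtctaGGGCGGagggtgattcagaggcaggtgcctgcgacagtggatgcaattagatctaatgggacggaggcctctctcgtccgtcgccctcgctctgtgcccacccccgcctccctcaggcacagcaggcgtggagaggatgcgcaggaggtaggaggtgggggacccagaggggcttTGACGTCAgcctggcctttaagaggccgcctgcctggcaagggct
Gad1 (chr2:70561879-70562128, plus strand): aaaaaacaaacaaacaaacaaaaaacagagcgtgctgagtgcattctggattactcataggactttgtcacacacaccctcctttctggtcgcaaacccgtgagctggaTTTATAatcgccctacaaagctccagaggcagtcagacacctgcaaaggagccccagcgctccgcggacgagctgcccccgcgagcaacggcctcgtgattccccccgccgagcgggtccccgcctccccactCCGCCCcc
Slc32a1 (chr2:158610508-158610757, plus strand): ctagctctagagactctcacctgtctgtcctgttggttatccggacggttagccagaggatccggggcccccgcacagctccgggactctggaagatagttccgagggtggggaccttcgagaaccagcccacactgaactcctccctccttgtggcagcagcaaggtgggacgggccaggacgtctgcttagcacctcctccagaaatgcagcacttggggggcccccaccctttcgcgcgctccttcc
Tfap2b (chr1:19211804-19212053, plus strand): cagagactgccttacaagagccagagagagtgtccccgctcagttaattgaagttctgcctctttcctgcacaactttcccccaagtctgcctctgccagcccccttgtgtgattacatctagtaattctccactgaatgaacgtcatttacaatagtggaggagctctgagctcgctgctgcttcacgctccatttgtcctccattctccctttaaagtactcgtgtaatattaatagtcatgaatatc

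Motifs were searched on both strands as plain letters: the TATA box (TATAAA), the CCAAT box (CCAAT), the GC box (GGGCGG), the E-box (CACGTG), the cyclic AMP response element (TGACGTCA), the core of an ATF6 site (TGACGTG) and a TFAP2 site (GCCNNNGGC). *Th*, the rate-limiting enzyme of dopamine synthesis, held the cyclic AMP response element 45 bases before its start and a GC box 220 bases before it. *Pax6* held the response element 76 bases before its start site 1, with a CCAAT box at 54 and a TFAP2 site at 221 bases. The ATF6 core lay 48 bases before *Pax6* start site 2. In *Gad1* a TATA box lay 141 bases and a GC box 8 bases before the start, both on the opposite strand. None of these letters was in the windows of *Slc32a1* and *Tfap2b*. Of 32851 mouse promoter windows of this length, 1.55% held the response element, 1.65% the ATF6 core, 12.4% a TATA box, 33.8% a CCAAT box, 32.7% a GC box, 6.02% an E-box and 13.7% a TFAP2 site. The ER stress response element, a CCAAT and a CCACG held 9 bases apart, was in 0.113% of them and in none of the windows of the 9 genes. Such matches describe letters in a window and are not binding sites. By base composition, G and C made up 62.4% of the *Slc32a1* window, 64.4% of the *Th* window and 46.4% of the *Tfap2b* window, against a median of 52.4% over all windows.

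Expression was deposited as FPKM, which divides fragments by transcript length and by the library's mapped fragments, so levels can be set side by side between genes. FPKM were rescaled between the 10 libraries of each experiment by median-of-ratios factors of 0.946 to 1.04 (OIR) and 0.98 to 1.02 (injected), and levels below are rescaled FPKM. Library sums of FPKM, 410599 to 456250, are not a depth. Judged by the step between low values, which is the worth of 1 fragment, relative depth was 0.961 in *Atf6*-/- replicate 4, 0.706 in Ceapin-A7 replicate 3 and 1 in the others. *Atf6* itself averaged 14.8 ± 0.745 (SD, n = 5) in *Atf6*+/+ OIR and 15.2 ± 1.39 (SD, n = 5) in *Atf6*-/- OIR retinas, so its RNA level does not check the genotype labels. *Gm29733*, a predicted gene that RefSeq's GRCm38.p6 annotation places inside *Atf6*, was named after its values were seen. Every *Atf6*-/- library listed it, with FPKM from 3.12 to 6.89, whereas its highest value was 0.21 among *Atf6*+/+ OIR libraries and 0.24 among injected wild-type ones, so by this gene no OIR library went against its genotype label.

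The OIR libraries differed in a trend that followed base composition, and this trend touches several amacrine genes. For each library, the deviation of log2 expression from the mean of the 10 libraries was rank-correlated with transcript GC content over 15227 genes. The correlation was 0.38, 0.38, 0.35, -0.32 and 0.32 in *Atf6*+/+ replicates 1 to 5 and -0.33, -0.15, -0.43, -0.55 and 0.42 in *Atf6*-/- replicates 1 to 5. *Atf6*+/+ replicate 4 and *Atf6*-/- replicate 5 thus went against the rest of their groups, while *Gm29733*, at 0 and 3.12 FPKM, followed their genotype labels. Across genes, the log2 fold change between genotypes had a rank correlation of -0.47 with transcript GC content, against -0.098 between Ceapin-A7 and PBS. In the injected experiment, library correlations lay between -0.32, in PBS replicate 2, and 0.16. No label names a sequencing batch or date.

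All 9 genes were detected in all 20 libraries, over a wide range of levels. *Gad1*, *Pax6* and *Slc6a9* were the most abundant, *Slc32a1* and *Tfap2b* came next, *Gad2*, *Tfap2a* and *Chat* lay between 5.16 and 14.9, and *Th* was lowest, between 1.23 and 3.27. This places *Gad1* at the 93.4th percentile of the genes tested in OIR and *Th* at the 22.2nd percentile. The OIR and the injected retinas differ in age, oxygen exposure and injection together, so their levels are set side by side with no test.

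*Gad1* and *Gad2* encode the enzymes that make GABA, GAD67 and GAD65. *Gad1* averaged 68.2 ± 4.08 in *Atf6*+/+ OIR, 69.0 ± 3.68 in *Atf6*-/- OIR, 99.4 ± 7.94 in PBS and 101.4 ± 5.59 in Ceapin-A7 retinas (SD, n = 5 each). All 10 injected libraries, at 91.5 to 111.3, were above all 10 OIR libraries, at 63.0 to 74.3. The share of all genes that separate the 2 experiments in this way is not given, so this is not a trait particular to *Gad1*. The 2 enzymes differed here, since *Gad2* averaged 10.3 ± 0.877, 9.97 ± 1.3, 9.78 ± 0.31 and 9.74 ± 0.67 in the same order (SD, n = 5 each), and the ranges of all neighbouring groups overlapped. The ratio of *Gad1* to *Gad2* within a library, which no library-wide scaling can move, therefore had medians of 6.59 in *Atf6*+/+ OIR and 6.91 in *Atf6*-/- OIR libraries, within 6.00 to 8.05, and of 10.2 in PBS and 10.8 in Ceapin-A7 libraries, within 9.54 to 11.3. A trend with GC content is not such a scaling. The 2 transcripts have 54.7% and 44.1% GC, and GC trends were taken only within each experiment.

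*Slc32a1*, which encodes the vesicular transporter that loads GABA and glycine into synaptic vesicles, averaged 46.9 ± 11.2 in *Atf6*+/+ OIR, 35.2 ± 13.2 in *Atf6*-/- OIR, 47.5 ± 4.08 in PBS and 46.9 ± 2.93 in Ceapin-A7 retinas (SD, n = 5 each). *Slc6a9*, the glycine transporter GlyT1 of glycinergic amacrine cells, averaged 62.5 ± 12.8, 54.2 ± 9.72, 93.7 ± 6.56 and 94.0 ± 1.84 in the same order (SD, n = 5 each). For *Slc6a9*, as for *Gad1*, every injected library, at 84.6 to 102.2, was above every OIR library, at 42.0 to 74.1. No share of all genes is set beside this separation either. For *Slc32a1* the OIR range of 25.8 to 58.4 enclosed the injected range of 42.4 to 51.8. The ratio of *Slc6a9* to *Slc32a1* had medians of 1.42, 1.67, 1.97 and 2.02 in the same order.

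*Chat*, which makes acetylcholine in starburst amacrine cells, averaged 6.97 ± 0.825, 6.27 ± 0.62, 6.03 ± 0.737 and 5.95 ± 0.507 in *Atf6*+/+ OIR, *Atf6*-/- OIR, PBS and Ceapin-A7 retinas (SD, n = 5 each), with overlap between all neighbours. Its ratio to *Slc18a3*, the vesicular acetylcholine transporter, had medians of 1.49, 1.94, 1.39 and 1.29. *Slc18a3* lies within the *Chat* locus, so how the counting divided reads between them is uncertain. *Th* averaged 1.65 ± 0.173, 1.72 ± 0.428, 2.38 ± 0.239 and 2.65 ± 0.422 in the same order (SD, n = 5 each). The *Th* means were highest in the injected groups, but the P17 range of 1.23 to 2.31 and the P30 range of 2.09 to 3.27 overlapped.

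*Tfap2a* averaged 11.7 ± 2.03 in *Atf6*+/+ OIR, 10.1 ± 2.87 in *Atf6*-/- OIR, 11.1 ± 1.04 in PBS and 10.3 ± 0.874 in Ceapin-A7 retinas (SD, n = 5 each). *Tfap2b*, its relative, was present at about 3 to 4 times that level, with means of 39.9 ± 6.96, 38.6 ± 3.84, 34.5 ± 4.25 and 32.4 ± 1.74 (SD, n = 5 each). *Pax6* averaged 90.1 ± 1.62, 100.1 ± 4.6, 93.4 ± 3.1 and 93.5 ± 3.26 (SD, n = 5 each). The means of the 4 groups lay closest together in *Gad2*, where the highest was 1.06 times the lowest, and in *Pax6*, at 1.11 times, and farthest apart in *Slc6a9*, at 1.73 times. For all 3 factors, neighbouring groups in the order of the means overlapped.

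**Figure D1:**
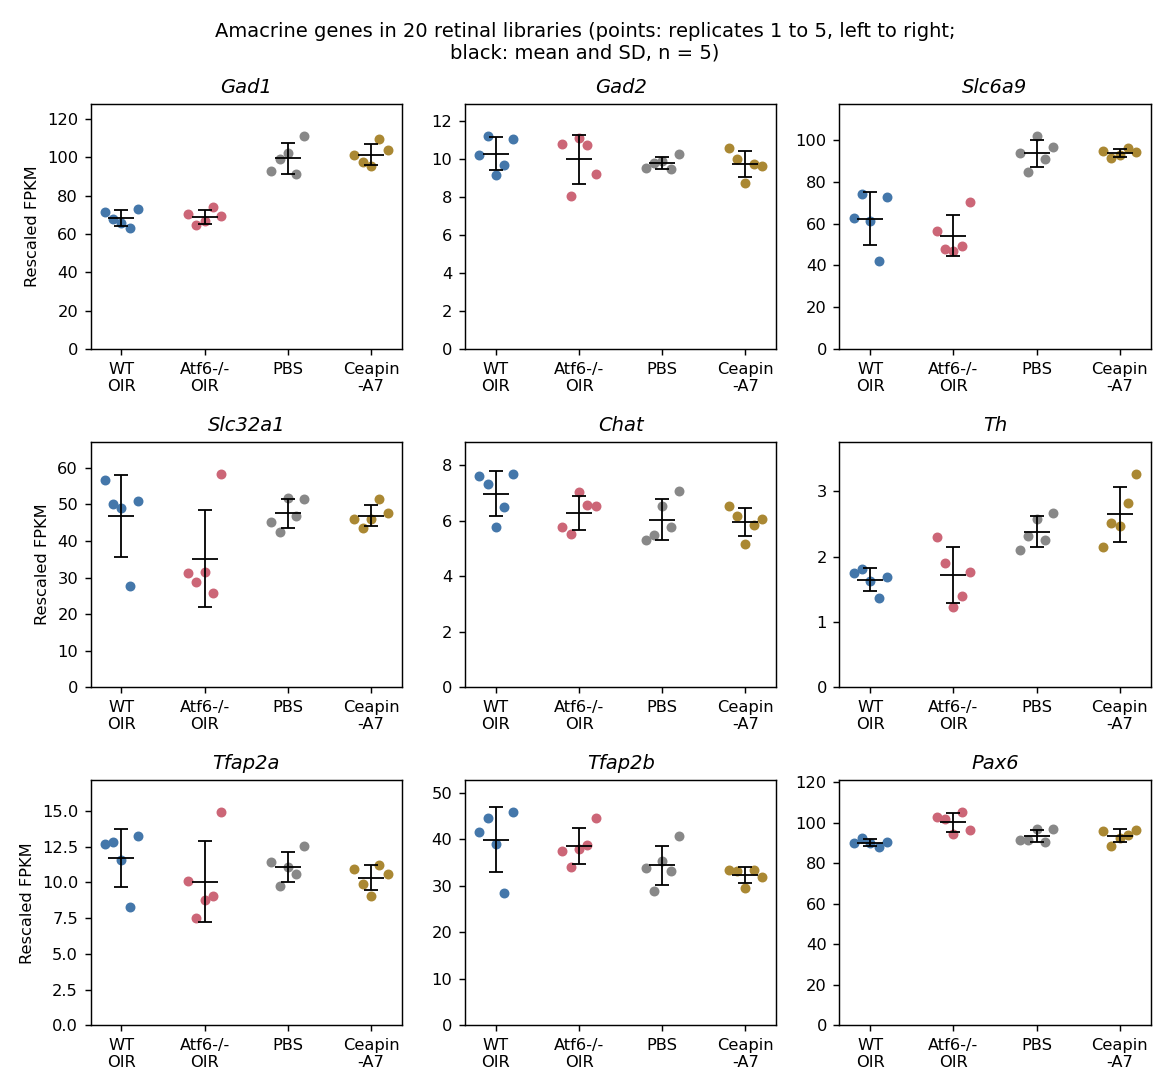
Rescaled FPKM (vertical axis, from 0) of the 9 amacrine genes in the 4 groups (horizontal axis), with a point per library, replicates 1 to 5 from left to right, and the mean and SD in black (n = 5). *Gad1* and *Slc6a9* sit higher in all 10 injected libraries than in all 10 OIR libraries, and in *Slc32a1* the *Atf6*+/+ library at 27.6 lies among the *Atf6*-/- values and the *Atf6*-/- library at 58.4 above all *Atf6*+/+ values.

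The comparison of *Atf6*-/- OIR with *Atf6*+/+ OIR retinas asks how amacrine gene expression differs with loss of *Atf6* in retinopathy. No amacrine gene passed an adjusted p of 0.05: 0 of 9, beside 0.0318% of the 15704 genes tested (limma on log2(FPKM + 0.1), Benjamini-Hochberg over all genes). Adjusted p ran from 0.36 for *Pax6* to 0.929 for *Th*. At the unadjusted threshold of 0.05 that the study uses, 1 of the 9, *Pax6*, passed, beside 12.7% of all genes. Among all genes 6.94% passed as higher and 5.81% as lower, against 1 and 0 of the 9. Of all genes past that threshold, 54.4% were higher in *Atf6*-/-, but 30.5% with FPKM as deposited and 31.0% with equal sums. The median of the 9 log2 fold changes was -0.05 beside 0.00 over all genes, with 3 above 0 and 6 below. Their median size was 0.15, beside 0.11 over all genes.

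*Pax6* was listed at rescaled FPKM of 90.2, 92.4, 89.8, 87.9 and 90.5 in *Atf6*+/+ replicates 1 to 5 and at 102.9, 101.8, 94.2, 105.2 and 96.4 in *Atf6*-/- replicates 1 to 5. All 5 *Atf6*-/- libraries were above all 5 *Atf6*+/+ libraries on this scale, while the groups overlapped in FPKM as deposited. The groups of 1 of the 9 genes did not overlap, beside 1.80% of all genes, in either direction. The log2 fold change of *Pax6* was 0.15 (standard error 0.05, 95% interval 0.04 to 0.26), which is 10.9% higher in *Atf6*-/- (unadjusted p = 0.0101, adjusted p = 0.36, limma across all genes). With each library's trend with GC content removed, it was 0.10 (unadjusted p = 0.0487, adjusted p = 0.464, limma across all genes). Over all alternatives its unadjusted p was at most 0.0487, and its adjusted p ran from 0.0377 to 0.693.

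*Slc32a1* showed the largest log2 difference of the 9 in size. It was listed at 56.6, 50.1, 49.2, 27.6 and 51.0 in *Atf6*+/+ replicates 1 to 5 and at 31.3, 28.7, 31.7, 25.8 and 58.4 in *Atf6*-/- replicates 1 to 5. Replicate 4 of *Atf6*+/+ was as low as the *Atf6*-/- libraries, and replicate 5 of *Atf6*-/- was the highest of all 10, so the groups overlapped. The log2 fold change was -0.44 (standard error 0.23, 95% interval -0.94 to 0.06, unadjusted p = 0.0791, adjusted p = 0.42, limma), and over all alternatives its adjusted p ran from 0.000427 to 0.722. It was -0.62 without *Atf6*+/+ replicate 4 (adjusted p = 0.156) and -0.64 without *Atf6*-/- replicate 5 (adjusted p = 0.102), both under the unadjusted threshold. These are the same 2 libraries whose GC trend went against their groups. The *Slc32a1* transcript, at 61.9% GC, has the highest GC content of the 9.

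*Slc6a9* was at 62.5, 74.1, 61.1, 42.0 and 72.7 in *Atf6*+/+ and 56.7, 48.0, 46.9, 49.5 and 70.2 in *Atf6*-/- replicates 1 to 5, a log2 fold change of -0.19 (95% interval -0.53 to 0.14, adjusted p = 0.55, limma). *Tfap2a* was at 12.7, 12.9, 11.6, 8.26 and 13.2 in *Atf6*+/+ and at 10.1, 7.53, 8.74, 9.04 and 14.9 in *Atf6*-/- replicates 1 to 5, a log2 fold change of -0.24 (95% interval -0.62 to 0.14, adjusted p = 0.522, limma). In both genes, as in *Slc32a1* and *Tfap2b*, *Atf6*+/+ replicate 4 was the lowest library of its group, and *Atf6*-/- replicate 5 the highest of its own. *Atf6*+/+ replicate 4 was also the lowest of its group in *Gad1*, *Th* and *Pax6*, but not in *Gad2* and *Chat*. In *Gad1*, *Gad2*, *Chat*, *Th* and *Pax6*, *Atf6*-/- replicate 5 was not the highest.

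The intervals of the other 5 genes included 0, as did those of *Slc32a1*, *Slc6a9* and *Tfap2a*. *Gad1* had a log2 fold change of 0.02 (95% interval -0.11 to 0.15) and *Gad2* of -0.05 (-0.26 to 0.16). *Chat* was at -0.15 (-0.36 to 0.07), *Th* at 0.03 (-0.31 to 0.38) and *Tfap2b* at -0.04 (-0.30 to 0.23). The interval of *Th*, the lowest gene, was the widest of these 5, and that of *Gad1* the narrowest.

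**Figure D2:**
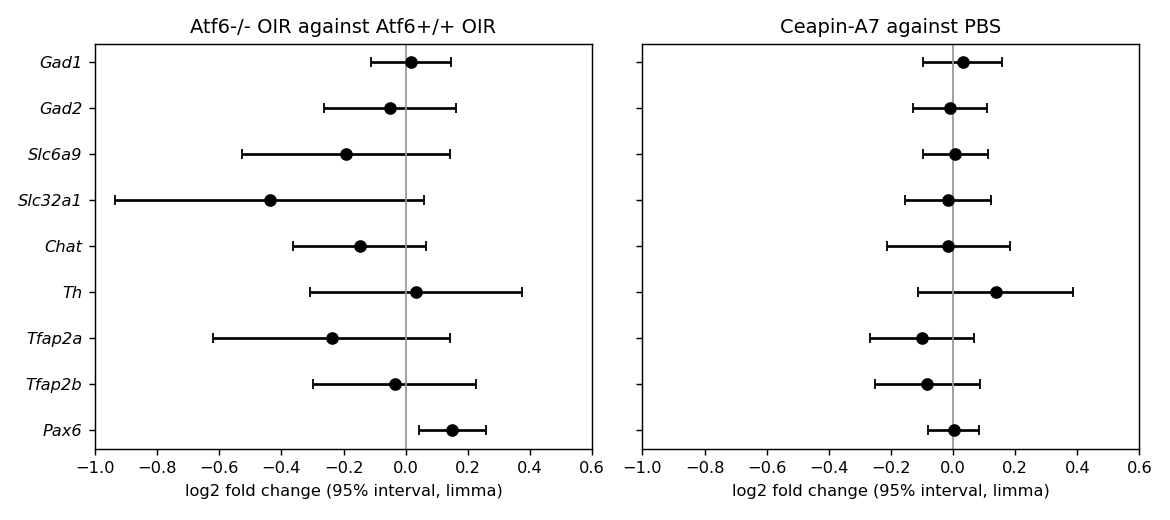
Log2 fold change (horizontal axis) of each of the 9 genes with its 95% interval from limma, for *Atf6*-/- against *Atf6*+/+ OIR (left) and Ceapin-A7 against PBS (right). In OIR the intervals run from 0.04 to 0.26 for *Pax6* and from -0.94 to 0.06 for *Slc32a1*, and after Ceapin-A7 every interval includes 0.

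Read by the GC trend of the libraries, 4 of the 9 genes, *Slc6a9*, *Slc32a1*, *Tfap2a* and *Tfap2b*, separated the 5 libraries of positive trend from the 5 of negative trend without overlap, beside 22.5% of all genes (3531 of 15704). The trend was computed from these same expression values, the 9 genes included, so the separation is a description and not a test. The 22.5% covers genes of any GC content, not genes of like GC content. Within the positive libraries, *Slc32a1* was 49.2 to 56.6 in the 4 of *Atf6*+/+ and 58.4 in the 1 of *Atf6*-/-. Within the negative libraries it was 27.6 in the 1 of *Atf6*+/+ and 25.8 to 31.7 in the 4 of *Atf6*-/-. Neither set therefore showed the lower mean in *Atf6*-/- that the pooled groups had, with 1 library on one side of each. *Pax6* kept its direction in both sets, with 96.4 against 89.8 to 92.4 in the positive and 94.2 to 105.2 against 87.9 in the negative libraries.

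With each library's trend with GC content removed, *Slc32a1* was at -0.29, *Slc6a9* at -0.10 and *Tfap2a* at -0.15. With the direction of the trend as a covariate, the log2 fold changes between genotypes became 0.13 for *Slc32a1*, 0.16 for *Slc6a9*, 0.17 for *Tfap2a* and 0.22 for *Tfap2b*, while *Pax6* was at 0.14. None of the 9 had an adjusted p under 0.05 in that fit (0.349 to 0.89, limma), beside 0.0382% of all genes. With limma's array weights, which give less weight to libraries that deviate, 3 of the 9 passed the adjusted threshold, *Slc32a1* at -0.67, *Slc6a9* at -0.39 and *Tfap2a* at -0.42, beside 17.6% of all genes. Without the 2 libraries, in 4 against 4, *Slc32a1* was at -0.82, *Slc6a9* at -0.43, *Tfap2a* at -0.51, *Tfap2b* at -0.21 and *Pax6* at 0.15, and these 5 had adjusted p-values from 0.000427 to 0.0384 (limma), beside 24.9% of all genes under 0.05 (3909 genes). In those 8 libraries genotype and GC trend coincide and cannot be told apart. The covariate and the exclusion were chosen after seeing the data.

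**Figure D3:**
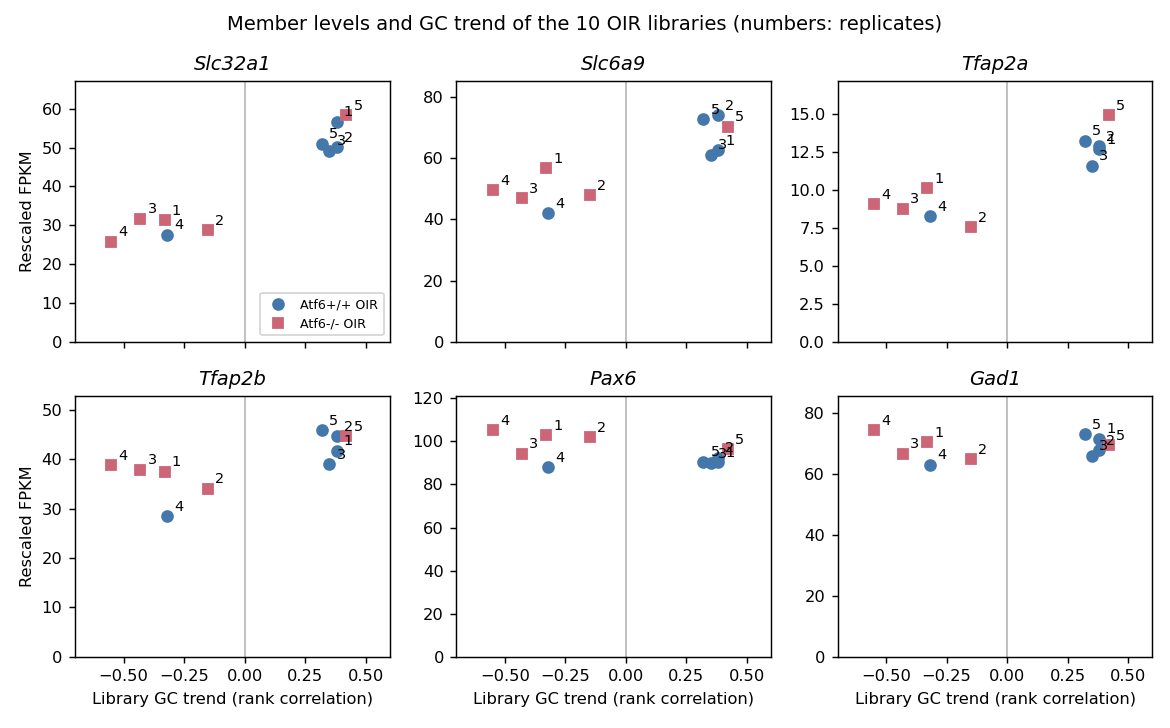
Rescaled FPKM (vertical axes, from 0) of 6 of the 9 genes against each OIR library's GC trend, the rank correlation of its expression deviations with transcript GC content (horizontal axes), with replicate numbers beside the points. *Slc32a1*, *Slc6a9*, *Tfap2a* and *Tfap2b* are higher in the 5 libraries to the right, *Atf6*-/- replicate 5 among them, whereas *Gad1* overlaps between the 2 sides and *Pax6* is lower in *Atf6*+/+ libraries on either side.

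The comparison of Ceapin-A7 with PBS asks whether acute ATF6 inhibition changes these genes in a retina without retinopathy. No amacrine gene passed: 0 of 9 at an adjusted p of 0.05 (0% of the 15408 genes tested, limma) and 0 of 9 at an unadjusted p of 0.05 (10.4% of all genes, 5.04% as higher and 5.31% as lower). Of all genes past the unadjusted threshold 48.7% were higher, but 26.8% with equal sums. The groups overlapped in all 9 genes, beside 1.47% of all genes with no overlap. Adjusted p ran from 0.628 for *Tfap2a* to 0.987 for *Pax6*. The median size of the 9 log2 fold changes was 0.02, beside 0.08 over all genes.

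After Ceapin-A7, *Pax6* had a log2 fold change of 0.00 (95% interval -0.08 to 0.08), *Slc6a9* of 0.01 (-0.10 to 0.11), *Gad2* of -0.01 (-0.13 to 0.11) and *Gad1* of 0.03 (-0.10 to 0.16). *Slc32a1*, the gene that spread most in OIR, was at 45.1, 42.4, 51.8, 47.0 and 51.4 in PBS and at 45.9, 43.5, 46.1, 51.4 and 47.7 in Ceapin-A7 replicates 1 to 5, with a log2 fold change of -0.02 (-0.16 to 0.12). Its coefficient of variation was 8.59% in PBS and 6.25% in Ceapin-A7 retinas, against 23.9% in *Atf6*+/+ OIR and 37.5% in *Atf6*-/- OIR.

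*Th* had the largest log2 difference in size after Ceapin-A7. It was at 2.09, 2.31, 2.58, 2.25 and 2.67 in PBS and at 2.15, 2.52, 2.46, 2.83 and 3.27 in Ceapin-A7 replicates 1 to 5, and the groups overlapped. Its log2 fold change was 0.14 (95% interval -0.11 to 0.39, adjusted p = 0.654, limma). *Tfap2a* was at -0.10 (-0.27 to 0.07), *Tfap2b* at -0.08 (-0.25 to 0.09) and *Chat* at -0.01 (-0.21 to 0.18).

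The 9 genes did not vary together as 1 group. Over the 20 libraries, with log2 values centred on each group's mean, *Slc6a9*, *Slc32a1*, *Tfap2a* and *Tfap2b* correlated with each other at r = 0.77 to 0.89. *Gad2* and *Chat* correlated at 0.69, and *Slc32a1* and *Gad2*, both genes of GABA transmission, at -0.01. *Pax6* reached 0.58 with *Gad1* and *Th* 0.48 with *Slc6a9*, the highest value of each. These are descriptions, since libraries share the GC trend given above.

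The genes most like each member were taken from 12562 genes by the same correlation over the 20 libraries. *Slc32a1* was most like *Dab2ip*, *Irf2bpl* and *Lrrc4b* (r = 0.98 each), *Slc6a9* like *Sv2a* (0.97), *Rhobtb2* (0.96) and *Mmp15* (0.95), *Tfap2a* like *Aatk* (0.96), *Clstn3* (0.96) and *Adgrb2* (0.95), and *Tfap2b* like *Chd5* (0.95), *Gpr179* (0.94) and *Chd3* (0.94). These 12 neighbours have transcripts of 54.2% to 63.8% GC. *Gad2* was most like *Ncam2* (0.92), *Epha10* (0.87) and *Rskr* (0.83), and *Chat* like *Cpne6* (0.90), *Rasgrf1* (0.85) and *Tmem200a* (0.82). *Gad1* was most like *Kctd8* (0.84), *Bmerb1* (0.82) and *Sorcs3* (0.80). The lowest values were those of *Th*, with *Cnih2* (0.76), *Dexi* (0.75) and *Hspbp1* (0.74), and of *Pax6*, with *Rasl11b* (0.76), *S100pbp* (0.74) and *1700019D03Rik* (0.73). The neighbours of *Th* have transcripts of 58.6% to 62.3% GC, those of *Chat* of 52.1% to 56.8% and those of *Pax6* of 44.7% to 53.7%. *Ncam2* has 38.5%, *Epha10* 59.1%, *Kctd8* 52.8% and *Sorcs3* 50.1%, and *Rskr* and *Bmerb1* have no GC value.

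Around the 9 genes, 7 lists of genes of amacrine transmitters, receptors, factors and subtypes held 91 genes. The lists are not confined to amacrine cells, and *Isl1*, *Sox2*, *Calb1* and *Prox1*, for example, are also expressed in other retinal cells. In OIR, 87 were tested and none had an adjusted p under 0.05 (lowest 0.358, limma). At an unadjusted p of 0.05, 18 passed, 13 higher and 5 lower in *Atf6*-/-, which is 20.7% beside 12.7% of all genes. After Ceapin-A7, 88 were tested, 0 passed the adjusted threshold (lowest 0.472) and 3 passed the unadjusted one, which is 3.41% beside 10.4% of all genes.

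Among genes of GABA synthesis, transport and breakdown, 2 of 8 passed the unadjusted threshold in OIR, both higher, beside 12.7% of all genes and 6.94% as higher. The median of the 8 was -0.02, with 5 of 8 below 0. *Slc6a13*, the GABA transporter GAT2, averaged 4.80 ± 1.19 in *Atf6*+/+ and 8.19 ± 2.08 in *Atf6*-/- (SD, n = 5 each), which is 0.76 on the log2 scale (adjusted p = 0.358, limma). After Ceapin-A7 it was at 0.51 with a standard error of 0.58 (unadjusted p = 0.397, limma). Of 12 pigment epithelium and ciliary margin markers, 10 lay above 0 in OIR and 2 below. Their part in the *Slc6a13* value was not tested. *Abat*, the transaminase that breaks down GABA, differed by 0.15 on the log2 scale in OIR (adjusted p = 0.364, limma) and by 0.14 (adjusted p = 0.472, limma) after Ceapin-A7. There *Abat* alone of the 8 passed the unadjusted threshold, beside 10.4% of all genes.

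Of 16 GABA receptor subunits, 5 passed the unadjusted threshold in OIR, all higher in *Atf6*-/-, beside 12.7% of all genes and 6.94% as higher, and 14 of 16 lay above 0 with a median of 0.15. The low genes *Gabra4* and *Gabrg1* were at 0.39 and 0.46 on the log2 scale, with transcript GC of 44.2% and 34.7%. After Ceapin-A7, 0 of 16 passed, beside 10.4% of all genes, with a median of -0.01. Of the 7 glycine transport and receptor genes, 0 passed in either comparison, beside 12.7% and 10.4% of all genes. Their median was 0.18 in OIR, with *Glra2*, a receptor subunit, at 0.25 and *Glrb*, the shared beta subunit, at 0.18.

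Of 8 genes of starburst cells, 2 passed the unadjusted threshold in OIR, beside 12.7% of all genes. They were *Ache*, which breaks down acetylcholine, at -0.35 and *Isl1*, a factor also of bipolar and ganglion cells, at 0.18. *Sox2*, expressed in starburst cells and Muller glia, was at -0.38 in OIR, where it did not pass (unadjusted p = 0.0563, limma across all genes), and at -0.31 after Ceapin-A7, where it did (unadjusted p = 0.0143, adjusted p = 0.472, limma across all genes). Of 8 dopaminergic genes tested, 1 passed in OIR and 0 after Ceapin-A7, beside 12.7% and 10.4% of all genes. It was *Gch1*, which makes the cofactor of tyrosine hydroxylase, with -0.47, at 0.573 ± 0.187 and 0.377 ± 0.0558 rescaled FPKM (SD, n = 5 each). *Slc6a3*, the dopamine transporter, was below the filter in both experiments.

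Among 20 tested amacrine transcription factors, 4 passed the unadjusted threshold in OIR and 0 after Ceapin-A7, beside 12.7% and 10.4% of all genes. In OIR 2 passed in each direction, *Neurod4* at 0.23, *Pax6* at 0.15, *Neurod2* at -0.36 and *Six3* at -0.41. *Six3* here and *C1ql2* below are named after their values were seen. *Ptf1a* and *Foxn4*, factors of amacrine precursors, were below the filter. Of the peptides and subtype markers, 4 of 20 passed in OIR, beside 12.7% of all genes. They were *Penk*, the enkephalin precursor, at 0.37, *Calb1* at 0.24, *Prox1* at 0.20 and *C1ql2* at -0.41. *Calb1* and *Prox1* are also expressed in horizontal cells. After Ceapin-A7, 1 of 21 passed, beside 10.4% of all genes, namely *Cck*, a neuropeptide, at 0.14.

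**Figure D4:**
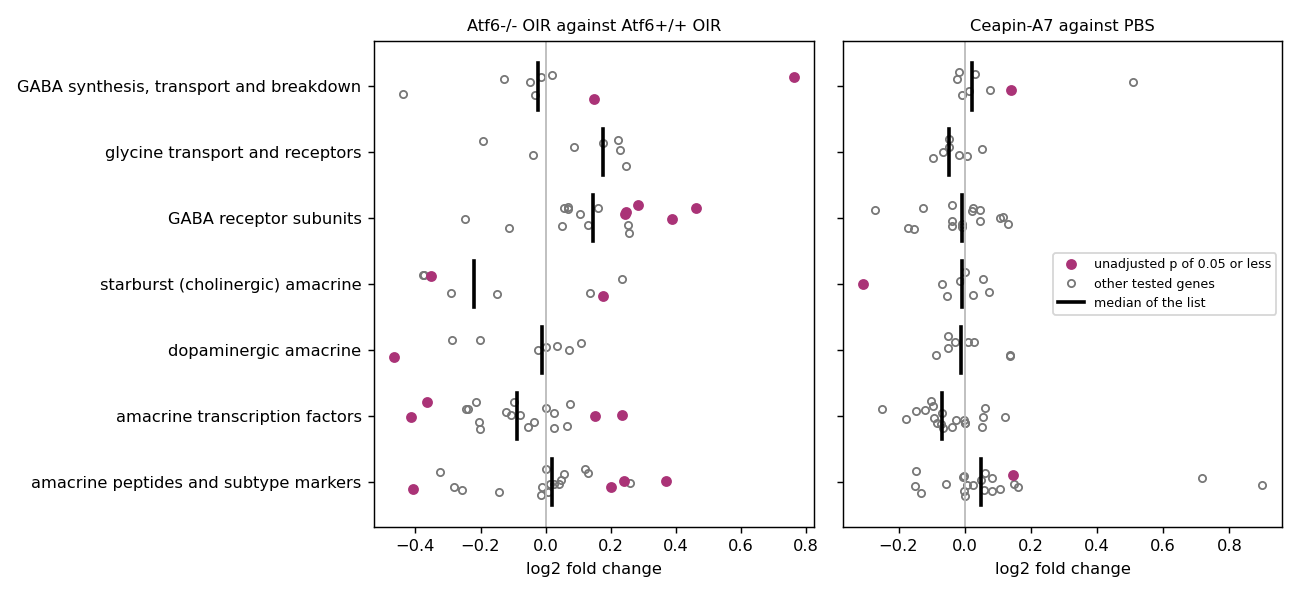
Log2 fold change (horizontal axis) of every tested gene in the 7 amacrine lists (rows) for *Atf6*-/- against *Atf6*+/+ OIR (left) and Ceapin-A7 against PBS (right), with the median of each list as a black bar and filled points for an unadjusted p of 0.05 or less. In OIR 18 of 87 points are filled, among them 5 GABA receptor subunits above 0, and after Ceapin-A7 3 of 88 are filled.

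Markers of other cell types were counted at the unadjusted threshold, which 12.7% of all genes passed in OIR and 10.4% after Ceapin-A7. Horizontal cell markers, which share *Slc32a1*, *Tfap2a* and *Tfap2b* with the 9 genes, had 3 of 9 higher in OIR, *Gja10* at 0.48, *Septin4* at 0.20 and *Calb1* at 0.24, with sums of 221 to 272 rescaled FPKM in *Atf6*+/+ and 246 to 298 in *Atf6*-/-. Of 12 ganglion cell markers 1 passed as higher and 1 as lower, of 10 bipolar markers 1, of 8 rod markers 2 and of 8 Muller glia markers 1, the bipolar, rod and Muller glia markers all as higher. After Ceapin-A7, 0 of 9 horizontal and 0 of 12 ganglion cell markers passed, 3 of 10 bipolar (2 higher, 1 lower), 1 of 8 rod (higher) and 2 of 8 Muller glia markers (1 higher, 1 lower). Lens markers, from tissue outside the retina, had 10 of 12 lower in *Atf6*-/- OIR and 0 of 13 past the threshold after Ceapin-A7, with sums of 9.70 to 606 in *Atf6*+/+ and 6.61 to 10.0 in *Atf6*-/-, and summed to 9.03 to 5400 in PBS and 94.5 to 9730 in Ceapin-A7 retinas. Of 12 pigment epithelium and ciliary margin markers, 4 were higher in OIR, and 4 were higher and 2 lower after Ceapin-A7. They summed to 25.1 to 130 and 90.9 to 309 in the OIR groups and to 127 to 290 and 118 to 445 in the injected groups. Of 12 immediate early genes, 3 were lower in OIR and 5 after Ceapin-A7, and 0 passed the adjusted one in any of these lists. Their part in the values of the 9 genes and of the other genes in the amacrine lists was not tested.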

How the data were processed

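The authors made stranded mRNA libraries and read both ends of each fragment for 100 bp. Per the labels and the methods, reads were aligned to GRCm39 with HISAT2 (2.0.4), expression was estimated with RSEM (1.2.18), and DESeq2 (1.4.5) was the authors' tool for differential expression. The authors deposited FPKM per gene to 2 decimals, with no counts, so no count model was fitted and no counting interval is given.

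Each experiment was fitted on its own 10 libraries in R (4.3.3) with limma (3.58.1, eBayes with trend) on log2(FPKM divided by a median-of-ratios factor + 0.1), for genes with a mean FPKM above 0.1, and p-values were adjusted by Benjamini-Hochberg over all genes tested. Fold changes on this scale understate the change of low genes. The fits were tested on simulated data, in which genes varied independently and libraries had no GC trend. That test therefore does not cover the GC trend of the OIR libraries. Transcript GC content was taken by symbol from a GRCm38 annotation (GENCODE) for 97.0% and 97.1% of the genes tested. Groups came from the sample labels.

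The 9 genes and all lists were chosen with earlier results of these data known. Named are the 9 genes, up to 3 genes of smallest p per list and experiment, the 3 genes most correlated with each member (mean FPKM of at least 1), and *Atf6*. *Slc6a3*, *Ptf1a* and *Foxn4* are named as not tested, *Slc18a3* for its ratio to *Chat*. *Gm29733*, *Six3* and *C1ql2* were chosen after their values were seen. A gene that this rule names is not reported here.

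Alternatives were pseudocounts of 1 and 0.01, no filter or a mean FPKM above 1, FPKM as deposited, equal sums (TPM), quantile normalization, array weights, the replicate number as a block and leaving out each library. A GC correction (lowess, span 0.3), the direction of the GC trend as a covariate and a fit without 2 libraries were added after seeing the data.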

Additional observations from a re-analysis of the deposited data

Results flagged for a closer look

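In each group of 5 libraries, the gap between the extreme library and its nearest neighbour was compared with the range of the group, for the 9 genes in 4 groups (36 in all, critical value 0.71). The lowest *Slc32a1* value of the *Atf6*+/+ OIR group, 27.6 rescaled FPKM in replicate 4, stood apart with a gap of 0.744 of the range. The highest *Slc32a1* value of the *Atf6*-/- OIR group, 58.4 rescaled FPKM in replicate 5, stood apart with a gap of 0.82 of the range. Chance gives such a gap in about 1 of 20 groups, and 2 of the 36 had one, which is close to that share. These are the libraries whose GC trend, -0.32 and 0.42, went against the rest of their groups. Their levels of *Gm29733*, 0 and 3.12 FPKM, followed their genotype labels. Their part in the result was not tested beyond the fits with and without them.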

How the results depend on the processing

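Of 378 recomputed log2 fold changes of the 9 genes, 324 kept their direction and their side of the threshold, 46 reversed and 8 moved past it (limma throughout). The count of the 9 genes at an adjusted p under 0.05 was 0 in OIR, 3 with array weights and 5 without both *Atf6*+/+ replicate 4 and *Atf6*-/- replicate 5, and 0 after Ceapin-A7 under every alternative run. At the unadjusted threshold of 0.05 the count of the 9 was 1 in OIR, but 2 with FPKM as deposited, 2 with the GC trend as a covariate, 4 with array weights, 5 without both libraries, and 1 to 4 leaving out 1 library (4 without *Atf6*+/+ replicate 4, 3 without *Atf6*-/- replicate 5, 2 without *Atf6*+/+ replicate 3). With array weights *Slc32a1* was at -0.67, *Slc6a9* at -0.39 and *Tfap2a* at -0.42. All genes under the adjusted threshold in OIR numbered 5, but 9 without a filter, 8 with the GC correction, 2769 with array weights, 3909 without both libraries and 5 to 9 leaving out 1. At the unadjusted one they numbered 2002, but 5749 with array weights, 6099 without both libraries and 1092 (without *Atf6*-/- replicate 4) to 4011 (without *Atf6*-/- replicate 5) leaving out 1, with 3762 without *Atf6*+/+ replicate 4 and 1301 without *Atf6*+/+ replicate 1. After Ceapin-A7 they numbered 1595, and 956 (without PBS replicate 4) to 2529 (without PBS replicate 2) leaving out 1.

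Values that changed sign were as follows, and the cause was not tested. In OIR, *Gad1* was at -0.0055 with equal sums, -0.0021 with array weights and -0.012 without both libraries, and *Th* at -0.10 and -0.046 in the latter pair. The GC covariate turned *Slc6a9* to 0.16, *Slc32a1* to 0.13, *Tfap2a* to 0.17 and *Tfap2b* to 0.22. Leaving out 1 library gave -0.011 to 0.044 for *Gad1*, -0.09 to 0.024 for *Gad2*, -0.076 to 0.14 for *Th* and -0.15 to 0.02 for *Tfap2b*. After Ceapin-A7, equal sums gave *Gad1* -0.0083, *Slc6a9* -0.032 and *Pax6* -0.037. Quantile normalization gave *Slc6a9* -0.013, *Chat* 0.0024 and *Pax6* -0.022, array weights *Gad2* 0.0032, *Slc6a9* -0.0089 and *Chat* 0.016, and the GC correction *Slc32a1* 0.015 and *Pax6* -0.0056. Leaving out 1 library after Ceapin-A7 gave -0.04 to 0.029 for *Gad2*, -0.029 to 0.039 for *Slc6a9*, -0.057 to 0.016 for *Slc32a1*, -0.057 to 0.043 for *Chat* and -0.0092 to 0.023 for *Pax6*. Of 1341 list counts, list medians and ratios, 1169 moved by less than the spread between libraries or, for counts, stayed near the main count, and 172 moved further. Of the 27 genes most like the 9, 18 stayed when values were centred on each experiment.

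Same-numbered libraries of 2 groups had correlated deviations of -0.26 to 0.21 in OIR and -0.22 to 0.31 after Ceapin-A7. Only replicate 1 of the injected groups, at 0.31, correlated best with its own number. Whether same-numbered libraries share more than a number cannot be told from these values. With a replicate block, 2 of the 9 genes passed the unadjusted threshold in OIR, *Pax6* and *Slc32a1* (-0.44), and none of the 9 changed its call at an adjusted p. FPKM carry no counts, which limits what can be said of low genes such as *Th*.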
